A study of Mus musculus with 2 samples.

Results

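The glutathione and thioredoxin antioxidant genes were followed in mouse CD4 T cells from a pathogenic Th17 culture (pTh17) and a non-pathogenic Th17 culture (npTh17). Th17 cells are the helper T cells that make IL-17. The 10 genes were chosen by gene symbol from the deposited count table (Slc7a11, Gclc, Gclm, Gpx1, Gpx4, Txn1, Txnrd1, Prdx1, Srxn1 and Txnip), and all 10 were found among its 22036 named genes. Of these, 9 averaged 1 CPM or more over both libraries (CPM, counts scaled to library size), as did 10597 of all genes, and Slc7a11 did not. Genes that pass this level are called measured. The study concerns Foxo1 and TGFβ1 in the choice between these fates. Wild-type mice gave the cells, taken from spleen and lymph nodes; strain, age and number are not in the labels. For pTh17 the medium held Activin-A at 20 ng/mL and IL-6 at 20 ng/mL. For npTh17 it held rhTGFβ1 at 2 ng/mL and IL-6 at 20 ng/mL. Both conditions shared antibodies to IFNγ and IL-4, each labelled 10 mg/mL, and a plate coating of anti-CD3 (10 μg/mL) and anti-CD28 (5 μg/mL), and both cultures were lysed after 24 h. The conditions therefore differed in the TGF-β family ligand.

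There was 1 library per condition, and named genes held 30877656 counts in pTh17 and 33470161 in npTh17. No difference has a replicate check and none was tested. Ranges given with ratios are 95% counting intervals, which cover counting error only. A ratio is pTh17 over npTh17 in CPM, with a prior count of 1. The T cell markers Cd3d, Cd3e, Cd3g, Cd4, Cd5, Cd28 and Lck lay between 73.4 and 806 CPM in pTh17 and between 88.9 and 722 CPM in npTh17. The Th17 cytokine gene Il17a had 243 counts in pTh17 and 207 in npTh17, and Il17f had 12180 in pTh17 and 19634 in npTh17. Marker lists of CD8 T, B, macrophage, neutrophil, dendritic, NK, erythroid and stromal cells each summed to between 0 and 3.78 CPM in pTh17 and between 0 and 4.58 CPM in npTh17. The B cell markers summed to 25 counts in pTh17 and 6 in npTh17 (0.808 CPM in pTh17 and 0.180 CPM in npTh17), of which Cd79b had 11 in pTh17 and 0 in npTh17, Cd79a 11 in pTh17 and 6 in npTh17, and Ms4a1 3 in pTh17 and 0 in npTh17. Pax5, Csf1r, Adgre1 and Flt3 had 0 counts in both libraries, and Cd68 made up most of the macrophage sum, with 110 counts in pTh17 and 123 in npTh17.

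Glutathione is a tripeptide built from glutamate, cysteine and glycine, and its cysteine is supplied in part by cystine imported from the medium. Glutathione peroxidases spend it to reduce peroxides. The thioredoxin branch runs in parallel: thioredoxin reductase passes electrons from NADPH to thioredoxin. Thioredoxin restores most peroxiredoxins and other oxidised proteins, and Txnip binds thioredoxin and blocks it. Activated T cells need the glutathione branch for growth, and many genes of both branches are targets of the transcription factor NRF2.

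The clearest difference among the abundant genes was in Txn1, the cytosolic thioredoxin gene, which was 1.57-fold higher in pTh17 (1.51 to 1.63). Srxn1, which encodes the sulfiredoxin that repairs over-oxidised peroxiredoxins, was 1.96-fold higher (1.38 to 2.88), on few counts. Both subunits of the rate-limiting enzyme of glutathione synthesis were lower in pTh17, at 0.833 times (0.786 to 0.882) for Gclc and 0.804 times (0.746 to 0.866) for Gclm. The other abundant genes, namely Gpx1, Gpx4, Txnrd1, Prdx1 and Txnip, had log2 ratios between −0.14 and 0.15. In bulk RNA, fewer cells of a type and less RNA per cell cannot be told apart. None of the 9 measured genes reached 2-fold, against 4.20% of all genes measured (2.25% higher and 1.95% lower in pTh17). Past 1.5-fold there were 2 of 9, Txn1 and Srxn1, both higher in pTh17, against 13.0% of all genes measured (7.20% higher and 5.76% lower in pTh17). So few genes allow no reading of that count against the background. Over the 9 genes the median log2 ratio was −0.07, with 4 above 0 and 5 below, beside a median of −0.0045 over all genes measured.

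Promoter sequences are printed to set the ratios beside known response elements. The 250 bases before the RefSeq start site were read for 9 of the 10 genes, all but Gclc (RefSeq, GRCm38.p6, the mm10 assembly), in 14 windows, since Gpx4 and Txnrd1 have several starts. The letters searched on both strands were TGACNNNGC, the core of the antioxidant response element bound by NRF2, and TGANTCAGC, the form that NRF2 and BACH factors bind with small Maf proteins. These may overlap each other. The carbohydrate response element, which pairs E-box-like stretches at a fixed spacing, and TGTTTAC, a forkhead core, were searched as well. Of all 32851 windows of that length, 10.2% held TGACNNNGC, 1.02% TGANTCAGC, 0.0457% the carbohydrate response element and 3.17% TGTTTAC. Capitals mark the matches, written 5′ to 3′ on the strand of the gene. Srxn1 (chr2:152105274-152105523, plus strand) holds TGANTCAGC, and Prdx1 (chr4:116685349-116685598, plus strand) holds a stretch that matches both antioxidant forms on the opposite strand. Txnrd1 (chr10:82858956-82859205, plus strand, 1 of its 3 windows) and Gclm (chr3:122245307-122245556, plus strand) hold TGACNNNGC on the opposite strand. Txnip (chr3:96557707-96557956, plus strand) holds first the forkhead letters on the opposite strand and then the carbohydrate element, and Txn1 (chr4:57956412-57956661, minus strand) holds none of the 4. Of the windows not printed, that of Slc7a11 holds TGTTTAC.
Srxn1: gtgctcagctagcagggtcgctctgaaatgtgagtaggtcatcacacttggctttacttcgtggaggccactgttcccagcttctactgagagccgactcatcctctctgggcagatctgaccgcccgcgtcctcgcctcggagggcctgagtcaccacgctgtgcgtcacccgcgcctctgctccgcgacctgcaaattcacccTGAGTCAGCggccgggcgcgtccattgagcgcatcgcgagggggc
Prdx1: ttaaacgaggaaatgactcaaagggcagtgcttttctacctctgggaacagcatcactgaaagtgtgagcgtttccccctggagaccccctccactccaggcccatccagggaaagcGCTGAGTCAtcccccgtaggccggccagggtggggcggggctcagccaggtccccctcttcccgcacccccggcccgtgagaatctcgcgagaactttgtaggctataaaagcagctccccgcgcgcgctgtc
Txnrd1: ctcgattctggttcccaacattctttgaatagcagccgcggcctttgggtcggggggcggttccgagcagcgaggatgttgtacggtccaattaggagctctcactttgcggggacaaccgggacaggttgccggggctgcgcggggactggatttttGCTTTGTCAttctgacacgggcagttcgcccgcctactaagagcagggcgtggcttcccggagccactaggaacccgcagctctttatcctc
Gclm: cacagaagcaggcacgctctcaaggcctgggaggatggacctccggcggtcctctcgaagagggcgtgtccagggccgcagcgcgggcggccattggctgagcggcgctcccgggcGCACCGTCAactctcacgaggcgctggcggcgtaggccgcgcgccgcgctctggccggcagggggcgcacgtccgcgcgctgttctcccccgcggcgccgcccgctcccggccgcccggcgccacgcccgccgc
Txnip: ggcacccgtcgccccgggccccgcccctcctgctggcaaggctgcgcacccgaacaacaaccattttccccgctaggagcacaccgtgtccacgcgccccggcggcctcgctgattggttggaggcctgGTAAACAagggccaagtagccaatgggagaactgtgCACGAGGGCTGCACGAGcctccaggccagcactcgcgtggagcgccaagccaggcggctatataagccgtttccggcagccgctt
Txn1: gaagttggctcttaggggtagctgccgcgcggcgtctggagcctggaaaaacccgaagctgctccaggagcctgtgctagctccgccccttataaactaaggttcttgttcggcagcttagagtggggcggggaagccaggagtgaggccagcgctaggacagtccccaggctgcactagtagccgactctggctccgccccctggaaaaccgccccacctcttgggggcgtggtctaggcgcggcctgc
The antioxidant letters thus stand before Srxn1 at a log2 ratio of 0.97, Txnrd1 at 0.09, Prdx1 at −0.07 and Gclm at −0.31. They are not in the windows of Txn1 at 0.65, Gpx4 at 0.15, Gpx1 at −0.13 and Txnip at −0.14. Nor are they in that of Slc7a11, which was below 1 CPM. A match of letters is a description of these windows only, and which factors bind them was not tested.

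**Figure D1:**
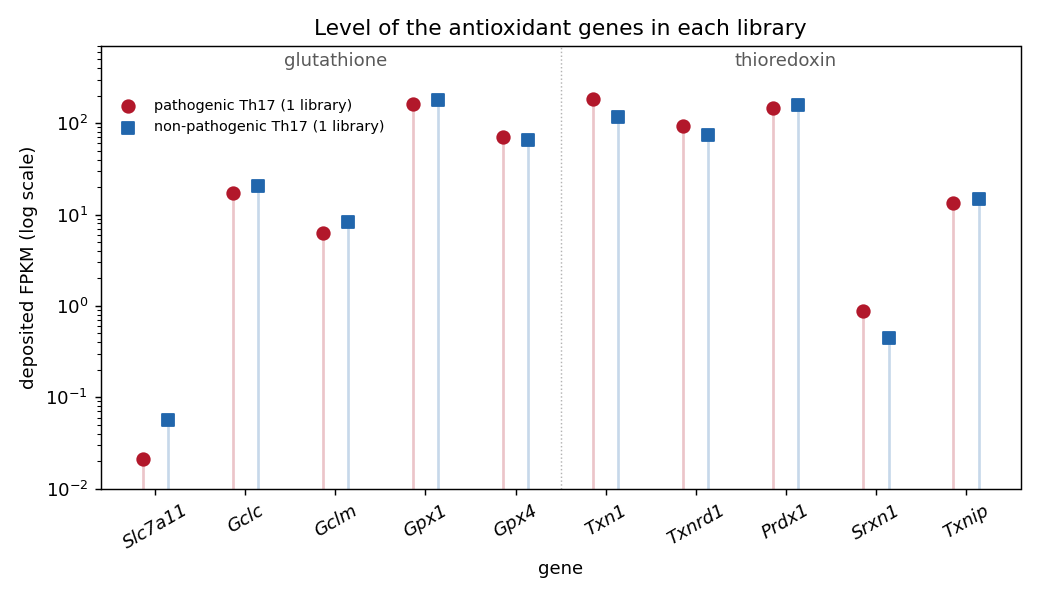
Deposited FPKM (log axis) of the 10 genes, with red circles for pTh17 and blue squares for npTh17, 1 library each; lines drop to the bottom of the axis. Txn1 is the highest of the 10 in pTh17 at 184 FPKM, Gpx1 in npTh17 at 179 FPKM, and Slc7a11 is the lowest in both.

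Cystine import starts the glutathione branch, and its transporter gene was barely counted. Slc7a11 (ENSMUSG00000027737, mm10 chr3:49892526-50443614, minus strand), the cystine carrying chain of the xCT transporter, had 7 counts in pTh17 and 20 in npTh17, or 0.226 and 0.598 CPM in the same order. Its log2 ratio was −1.29 (−2.89 to −0.10) with a prior count of 1, and −0.98 with a prior count of 5. On the log2(FPKM + pseudocount) scale it was −0.37 with a pseudocount of 0.1 and −0.05 with 1. With the counts halved, as if each sequenced fragment had been counted as 2 reads, the interval ran from −3.34 to 0.58 and held an equal level. Its longest annotated transcript, of 9223 bases, contains a 585 base stretch that is 92.5% identical to Tuba1b, an abundant tubulin gene with 60329 counts in pTh17 and 52624 in npTh17. What part of the few Slc7a11 counts came from tubulin reads was not tested. Slc3a2, the partner chain that xCT shares with other amino acid transporters, had 91.2 FPKM in pTh17 and 84.1 FPKM in npTh17. Slc1a5, a glutamine carrier, had a log2 ratio of 0.33 (0.29 to 0.37), and Slc1a4, a carrier of neutral amino acids, one of −0.56 (−0.70 to −0.43), both named after their values were seen. Of the 6 measured genes of cystine and cysteine supply, 4 were higher in pTh17 and none passed 1.5-fold.

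Gclc (ENSMUSG00000032350, chr9:77754535-77794485, plus strand) encodes the catalytic subunit of glutamate cysteine ligase. It had 2075 counts and 17.2 FPKM in pTh17, against 2692 counts and 20.7 FPKM in npTh17. Gclm (ENSMUSG00000028124, chr3:122245557-122270732, plus strand) encodes the modifier subunit, which raises the activity of the enzyme, and had 1231 counts and 6.27 FPKM in pTh17, against 1655 counts and 8.34 FPKM in npTh17. Both subunits were thus lower in pTh17, with log2 ratios of −0.26 (−0.35 to −0.18) for Gclc and −0.31 (−0.42 to −0.21) for Gclm, or −0.41 for Gclm by FPKM. Many genes had ratios this low or lower, since 19.3% of all genes measured had a lower ratio than Gclc and 15.8% a lower ratio than Gclm. Among genes averaging 50 CPM or more, 14.3% had a lower ratio than Gclc and 10.7% a lower ratio than Gclm. Per length, Gclc stood at 2.74 times Gclm in pTh17 and 2.48 times in npTh17. The gene Gclm overlaps a pseudogene, Gm6061, on its own strand and a transcript, Gm17494, on the other. Gss, the glutathione synthetase gene of the second step, had a log2 ratio of −0.17 (−0.31 to −0.03), and Gsr, which regenerates glutathione, one of −0.01 (−0.08 to 0.07). Over the 12 measured genes of glutathione synthesis and turnover, 6 were higher and 6 lower in pTh17, none past 1.5-fold by counts.

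Of the glutathione peroxidase genes only Gpx1 and Gpx4, both selenoproteins, were measured, and these were close between the libraries. Gpx1 (ENSMUSG00000063856, chr9:108338903-108340343, plus strand), the cytosolic and mitochondrial peroxidase gene, had 5764 counts and 162 FPKM in pTh17, against 6798 counts and 179 FPKM in npTh17. Its log2 ratio was −0.13 (−0.18 to −0.08). Gpx4 (ENSMUSG00000075706, chr10:80047166-80056439, plus strand), which reduces lipid peroxides and protects T cells from ferroptosis, had 2398 counts and 71.0 FPKM in pTh17, against 2331 counts and 64.8 FPKM in npTh17. Its log2 ratio was 0.15 (0.07 to 0.24). The longest annotated transcripts have 1072 bases at 57.2% GC for Gpx1 and 995 bases at 60.2% GC for Gpx4. With a smooth trend of the ratio on transcript length and GC content removed, Gpx1 moved to −0.38 and Gpx4 changed sign to −0.15, so the direction of Gpx4 depends on that correction. A pseudogene, Gpx4-ps2, is 99.7% identical to Gpx4 over 733 bases, and reads cannot be assigned between the copies with certainty. The other peroxidase genes, Gpx2, Gpx3 and Gpx5 to Gpx8, were below 1 CPM.

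Thioredoxin showed the largest difference of the 8 genes on the list that averaged over 5 CPM. Txn1 (ENSMUSG00000028367, chr4:57943373-57956411, minus strand) had 6818 counts and 184 FPKM in pTh17, against 4703 counts and 118 FPKM in npTh17. The log2 ratio of 0.65 (0.59 to 0.70) was higher than that of 94.1% of all genes measured and of 98.1% of the 4477 genes averaging 50 CPM or more. By the deposited FPKM it was 0.64, and with counts halved the interval was 0.57 to 0.72. Removing the length and GC trend brought it to 0.47, or 1.39-fold, which is below 1.5-fold; its 1 annotated transcript has 1051 bases. A processed pseudogene, Txn-ps1, is 95.8% identical over 309 bases. Txn2, the mitochondrial thioredoxin gene, had a log2 ratio of 0.14 (0.08 to 0.19). Per length, Txn1 stood at 1.53 times Txn2 in pTh17 and 1.07 times in npTh17. Among the 10 genes, Txn1 ranked above Gpx1 and Prdx1 by FPKM in pTh17 and below both in npTh17.

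Txnrd1 (ENSMUSG00000020250, chr10:82833951-82897712, plus strand) encodes the cytosolic selenoprotein that reduces thioredoxin with NADPH. It had 9691 counts in pTh17 and 9818 in npTh17, a log2 ratio of 0.09 (0.05 to 0.13). In deposited FPKM it had 92.5 in pTh17 and 74.7 in npTh17, a log2 ratio of 0.31. The length implied by counts and FPKM was 3393 bases in pTh17 and 3926 bases in npTh17, so the length behind the deposited FPKM differed between libraries for this gene, which has 8 annotated transcripts. Eid3 lies inside Txnrd1 on the same strand. The size of the Txnrd1 difference therefore depends on the table, while its direction does not. Txnrd2, the mitochondrial reductase gene, had a log2 ratio of 0.16 (0.00 to 0.31) by counts and −0.05 by FPKM. Of 20 measured thioredoxins and thioredoxin reductases, 10 were higher and 10 lower in pTh17, and Txn1 was the one past 1.5-fold.

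Most peroxiredoxins, Prdx1 among them, reduce peroxides with electrons from thioredoxin. Prdx1 (ENSMUSG00000028691, chr4:116685544-116700822, plus strand), the cytosolic form, was the most counted of the 10 genes, with 11504 counts in pTh17 and 13032 in npTh17. Its FPKM was 145 in pTh17 and 156 in npTh17, and its log2 ratio was −0.07 (−0.10 to −0.03). These FPKM values imply a length of 2570 bases in pTh17 and 2490 in npTh17, nearer its longest annotated transcript (2294 bases) than the shortest of its 6 (553 bases). Implied lengths ran long, since Txn1, with 1 transcript of 1051 bases, came to 1201 in pTh17 and 1193 in npTh17. The level of Prdx1 relative to other genes rests on that choice of length. Pseudogenes of Prdx1 are up to 98.3% identical over 597 bases. Among its relatives, Prdx3 and Prdx5, which act in mitochondria, had log2 ratios of 0.22 (0.16 to 0.28) and 0.22 (0.11 to 0.32). Prdx6 was lower in pTh17 at −0.25 (−0.30 to −0.21), and Prdx2 and Prdx4 were at 0.10 and −0.02.

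Srxn1 (ENSMUSG00000032802, chr2:152105516-152111376, plus strand) had 88 counts and 0.877 FPKM in pTh17, against 48 counts and 0.447 FPKM in npTh17. Its log2 ratio of 0.97 (0.46 to 1.53) was the highest of the 10 genes, and 97.5% of all genes measured had a lower one. Counts this low spread widely: with counts halved the interval was 0.24 to 1.77, and by log2(FPKM + 1) the value was 0.38. The FPKM of Prdx1, its substrate, was 165 times that of Srxn1 in pTh17 and 350 times in npTh17. Sulfiredoxin mRNA was thus scarce in both cultures beside that of the protein it repairs.

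Txnip (ENSMUSG00000038393, chr3:96557957-96561883, plus strand) is the thioredoxin inhibitor, an alpha-arrestin that also restrains glucose uptake. It had 1341 counts and 13.5 FPKM in pTh17, against 1592 counts and 14.9 FPKM in npTh17. Its log2 ratio was −0.14 (−0.24 to −0.03), and with counts halved the interval reached 0.01. An antisense gene, Gm15441, overlaps Txnip, and without strand information reads from stretches that both transcripts share cannot be told apart. The longest match found with the Txnip transcript of 2827 bases covers 443 bases at 100% identity. Per length, Txn1 mRNA stood at 13.6 times Txnip mRNA in pTh17 and 7.92 times in npTh17. Arrdc3 and Arrdc4, the closest relatives of Txnip, were 0.783 times (0.685 to 0.894) and 0.788 times (0.499 to 1.22) their npTh17 levels. Of the factors that act at the carbohydrate element, Mlxip, the MondoA gene, had 0.30 (0.21 to 0.39) and its partner Mlx had −0.49 (−0.61 to −0.38). Of the 7 measured genes of this list, 2 were higher and 5 lower in pTh17, and none passed 1.5-fold.

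**Figure D2:**
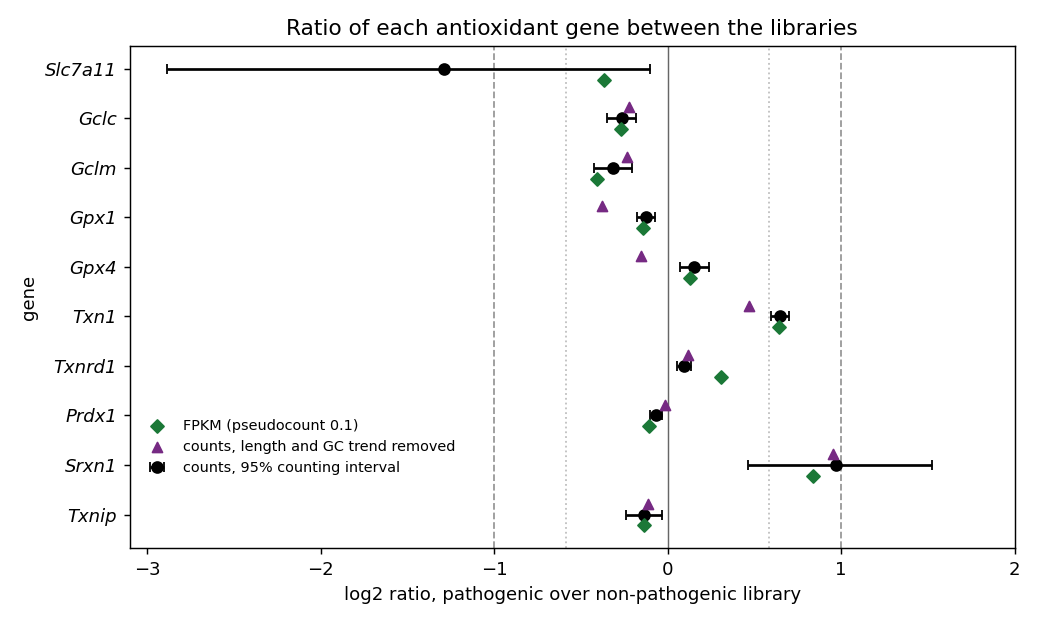
Log2 ratio of each gene, pTh17 over npTh17, by counts with the 95% counting interval (black), by FPKM (green diamonds) and by counts with the length and GC trend removed (purple triangles; none for Slc7a11); dotted lines mark 1.5-fold and dashed lines 2-fold. Txn1 and Srxn1 lie right of 1.5-fold by counts, Txn1 falls to 0.47 with the trend removed, and Gpx4 changes side.

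The summed counts of each branch differed little between the libraries. The thioredoxin branch (Txn1, Txnrd1, Prdx1, Srxn1 and Txnip) summed to 29442 counts in pTh17 and 29193 in npTh17, a log2 ratio of 0.12 (0.10 to 0.15), or 0.26 by summed FPKM. Without Txn1 the other 4 genes summed to 22624 counts in pTh17 and 24490 in npTh17, and the interval of the log2 ratio, −0.03 to 0.02, held an equal level. The glutathione branch (Slc7a11, Gclc, Gclm, Gpx1 and Gpx4) summed to 11475 counts in pTh17 and 13496 in npTh17, a log2 ratio of −0.12 (−0.16 to −0.09), or −0.09 by summed FPKM. All 10 genes took 0.133% of counts in pTh17 (0.131 to 0.134, exact Clopper-Pearson) and 0.128% in npTh17 (0.126 to 0.129).

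**Figure D3:**
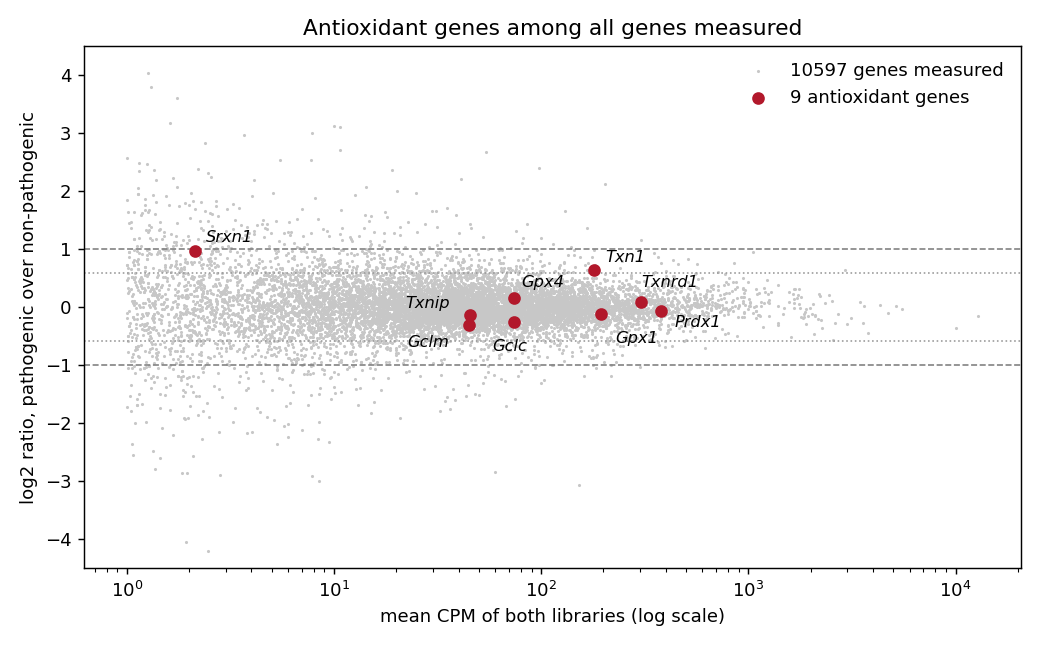
Log2 ratio against mean CPM (log axis) for the 10597 genes measured (grey) and the 9 measured antioxidant genes (red), with dotted lines at 1.5-fold and dashed lines at 2-fold. Srxn1 sits at 2.14 CPM, where ratios spread widely, while Txn1 sits at 181 CPM, near the upper edge of genes of its level.

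Among the measured genes of NRF2 and its regulators and of other NRF2 targets none passed 1.5-fold, against 13.0% of all genes measured. These lists leave out the antioxidant genes followed above. Of those, Srxn1, at a log2 ratio of 0.97, and Txn1, at 0.65, passed 1.5-fold by counts. Nfe2l2, which encodes NRF2, had a log2 ratio of −0.14 (−0.24 to −0.04), and Keap1, which marks NRF2 for degradation, one of 0.22 (0.13 to 0.31). Bach1 and Bach2, repressors that compete for the same element, had −0.24 (−0.40 to −0.08) and −0.30 (−0.33 to −0.27). Of 12 measured genes of NRF2 and its regulators, 7 were higher and 5 lower in pTh17. The lowest ratio, −0.43 (−0.48 to −0.39), was at Cul3, the ubiquitin ligase scaffold gene that works with Keap1. Cul3 was named after its values were seen. Among 15 other measured NRF2 targets 7 were higher and 8 lower, with Hmox1, the heme oxygenase gene, at 0.06 (−0.18 to 0.30). The medians were 0.03 for the regulators and −0.01 for the targets. Below 1 CPM, Nqo1, a quinone reductase gene and a common reporter of NRF2 activity, had 15 counts in pTh17 and 0 in npTh17. Against a floor of 3 counts in npTh17 that is 5.40-fold, and the counting interval starts at 3.88-fold, or at a log2 ratio of 0.88 with counts halved. Blvrb, the biliverdin reductase B gene, had 30 counts in pTh17 and 15 in npTh17, 2.09-fold (1.13 to 4.32), and was named after its values were seen.

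Of 132 measured genes in all pathway lists other than the 10, 74 were higher and 58 lower in pTh17. Past 1.5-fold there were 6 higher and 4 lower, or 7.58%, against the 13.0% of all genes given above, and past 2-fold there was 1 in each direction. The median log2 ratio was 0.05. From the 5th to the 95th percentile, ratios ran from −0.63 to 0.70 over all genes measured. Over genes averaging 50 CPM or more they ran from −0.46 to 0.44. A share past 1.5-fold among genes of like level was not computed. Lists with no gene past 1.5-fold by counts were cystine supply, glutathione synthesis, glutathione peroxidases, glutaredoxins, Txnip with its relatives and NRF2 regulators. The same held for other NRF2 targets, NADPH supply, superoxide dismutases with catalase, methionine sulfoxide reductases, selenoprotein synthesis and iron handling. By FPKM, Oplah of glutathione synthesis, at a log2 ratio of 0.66, and Glrx2 of the glutaredoxins, at 0.59, passed 1.5-fold. By counts these were at 0.24 for Oplah and 0.07 for Glrx2, and both were named after their values were seen. Glrx, the cytosolic glutaredoxin gene, had a log2 ratio of 0.26 (0.02 to 0.51).

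NADPH oxidase subunits, which make superoxide rather than remove it, had the highest list median, 0.62, with 5 of 6 measured genes higher in pTh17. Ncf4, a cytosolic subunit gene, was 2.13-fold higher (1.86 to 2.44), with 639 counts in pTh17 and 324 in npTh17. Cyba and Ncf1, named after their values were seen, were 1.71-fold (1.58 to 1.85) and 1.63-fold (1.20 to 2.25) higher. By FPKM Ncf4 was at a log2 ratio of 0.97, below 2-fold. With the length and GC trend removed it was at 0.94, Cyba fell below 1.5-fold at 0.36, and the list median was 0.47, beside 0.44 by FPKM. The catalytic subunit gene Cybb, abundant in phagocytes, had 2 counts in each library. Nox1, another catalytic subunit gene, named after its values were seen, had 18 counts in pTh17 and 2 in npTh17, a log2 ratio of 2.75 (1.22 to 6.43). The macrophage and monocyte markers summed to 3.78 CPM in pTh17 and 4.58 CPM in npTh17, mostly Cd68. The neutrophil markers summed to 0.550 CPM in pTh17 and 0.808 CPM in npTh17. Itgam, a macrophage and monocyte marker, had 0 counts in pTh17 and 24 in npTh17. Itgax, a dendritic cell marker, had 0 in pTh17 and 20 in npTh17. The B cell markers, from another cell type that uses these subunits, were higher in pTh17, at the 25 counts in pTh17 and 6 in npTh17 given above. The part of phagocytes, dendritic cells or B cells in the NADPH oxidase ratios was not tested.

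Glutathione S-transferases, which couple glutathione to other molecules, went both ways, with 6 of 11 measured genes higher in pTh17 and a median of 0.20 that became −0.15 with the trend removed. Mgst2 was 0.479 times its level in npTh17 (0.274 to 0.779), on 23 counts in pTh17 and 53 in npTh17. Named after their values were seen, Gstt2 had a log2 ratio of 0.91 (0.70 to 1.14), Gstk1 one of 0.74 (0.25 to 1.25) and Gstp2 one of −0.98 (−1.32 to −0.67). The Gstp2 transcript is 98.2% identical to Gstp1 over 707 bases, and Gstp1 had 2335 counts in pTh17 and 2201 in npTh17, so the Gstp2 count is uncertain. Among 11 other measured selenoproteins 6 were higher in pTh17, and Selenoh was at 0.75 (0.66 to 0.84), or 0.42 with the trend removed, which is below 1.5-fold. Selenop, a secreted selenium carrier, was at −0.66 (−0.78 to −0.53) and Dio2, a thyroid hormone deiodinase gene, at −0.70 (−0.99 to −0.43).

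**Figure D4:**
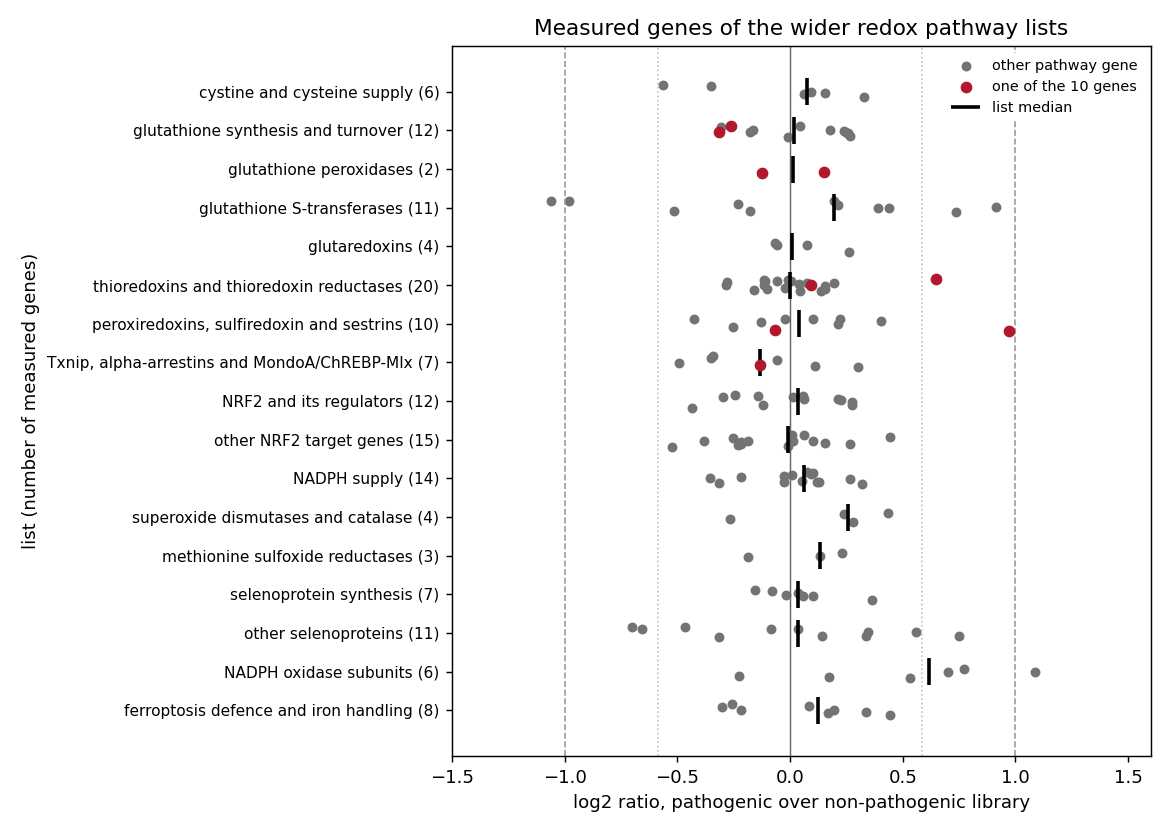
Log2 ratios of the measured genes of each pathway list (grey points, red for the 10 genes) with the list median (black tick); the number of measured genes is in brackets, dotted lines mark 1.5-fold and dashed lines 2-fold. Most genes lie within 1.5-fold, Txn1 and Srxn1 lie apart in their lists, and the NADPH oxidase median is the highest at 0.62.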

How the data were processed

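Messenger RNA was purified with oligo(dT) beads, broken up, reverse transcribed with random primers and amplified, per the labels' protocols, which describe no strand marking and no molecular identifiers. The authors deposited whole-number counts per gene and FPKM values (fragments scaled to transcript length and library size), per the file headers. Per the submitters' processing notes, coordinates are on mm10. Which aligner, counter and annotation were used is not given in the sources used here. Each table has 23702 rows; 10 blank ones, 10 of stray annotation text and 1646 lacking a gene name were dropped, the last with 2.50% of pTh17 and 2.90% of npTh17 counts. In 27 rows, symbols that a spreadsheet had turned into dates were restored.

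Library sizes took TMM factors (edgeR 4.0.16, R 4.3.3), and ratios took a prior count of 1 in proportion to library size. Genes averaging 1 CPM or more were compared with folds of 2 and 1.5. With 1 library per condition there is no p-value. Intervals are exact Clopper-Pearson intervals of the share of counts in pTh17, at 95%. Counts of 2 were 3.88 times as frequent as counts of 1 among features in pTh17 and 4.57 times in npTh17, so a fragment can have added more than 1 and intervals can be too narrow. FPKM ratios took a pseudocount of 0.1. The length and GC trend was fitted with mgcv 1.9.3 on 10594 genes and explained 4.56% of the deviance of the ratios. Positions and transcript lengths are from GENCODE M21, and similar transcripts were found with BLAST 2.17.0 at 90% identity or more over at least 200 bases. The calculations were tested on simulated counts that held counting error only. That simulation cannot show how the intervals do where a fragment adds more than 1 count. Alternatives were other scalings (none; DESeq2 1.42.0), prior counts, filters, FPKM and removal of the trend.

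The 10 genes and the lists were chosen with earlier results of these data known. All 10 genes are named whatever their value, as are fixed partners. From each pathway list the measured genes past 2-fold are named, or past 1.5-fold where none passes 2-fold (at most 4).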

Additional observations from a re-analysis of the deposited data

How the results depend on the processing

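Scaling by total counts or by DESeq2 size factors, library sizes that include features with no gene name, and prior counts of 0 or 5 left the number of the 10 genes past 1.5-fold and past 2-fold as it was; these were not run for the pathway lists. With no filter, 1 of the 10 genes, Slc7a11, passed 2-fold, against 0 with the filter. The 2 genes past 1.5-fold became 1 at a mean of at least 5 CPM, where Srxn1 is left out, 1 by log2(FPKM + 1) and 1 with the length and GC trend removed. The median log2 ratio, −0.07 by counts, was −0.11 by FPKM with either pseudocount (0.1 or 1) and −0.11 with the trend removed; the cause was not tested. Over the 10 alternatives for which it has a value, Txn1 ranged from 0.47 to 0.66 and Gclc from −0.27 to −0.22, Slc7a11 ranged from −1.40 to −0.05 over 8, and Gpx4 was the one gene to change sign, in 1 alternative. With counts halved, 8 of the 10 counting intervals left out an equal level, against 10 with counts as deposited, the exceptions being Slc7a11 and Txnip. The other pathway genes past 1.5-fold numbered 10 by counts, 12 by FPKM and 7 at a mean of at least 5 CPM. Summing each gene with pseudogene rows of the same name could not be run, because no such row was found. No paired analysis was possible because each condition has 1 library, and for the same reason no library could be left out. Depth limits Slc7a11 and Srxn1, where at most 88 counts in a library carry the ratio.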

Other observations

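Of the 47 pathway genes below 1 CPM other than Slc7a11, 7 had a counting interval that left out an equal level, 5 of them higher and 2 lower in pTh17; this rule was chosen after their values were seen. Nqo1, Blvrb and Nox1 are described above. Gstt3, a theta class transferase gene, had 20 counts in pTh17 and 2 in npTh17, a log2 ratio of 2.90 (1.39 to 6.58). Gsto2, an omega class transferase gene, had 9 counts in pTh17 and 2 in npTh17, at 1.82 (0.01 to 5.53). Gpx3, a secreted peroxidase gene, had 3 counts in pTh17 and 13 in npTh17, with a log2 ratio of −1.71 (−4.46 to −0.14). Gpx7 had 7 counts in pTh17 and 19 in npTh17, at −1.22 (−2.82 to −0.02). With counts halved, 3 of the 7 intervals still left out an equal level, those of Gstt3, Nox1 and Nqo1.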
